A study of Rattus norvegicus with 9 samples.

Results

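Chronic epilepsy on a standard diet was examined in the dorsal hippocampus of male Wistar rats by comparing 3 pilocarpine-treated animals (PILO) with 3 controls (CTRL), which make up 6 of the 9 mRNA-Seq libraries of the study. The other libraries come from pilocarpine-treated rats on a ketogenic diet and enter only a fit of all 9 libraries, as a separate group. All PILO and CTRL animals ate standard chow and received methyl scopolamine at 1 mg/kg, which limits the peripheral effects of pilocarpine. PILO rats were then given pilocarpine at 340 mg/kg, with a further 175 mg/kg where the first injection brought on no status epilepticus, and status epilepticus was ended after 60 min with diazepam at 8 mg/kg. CTRL rats received saline in its place, without diazepam or the glucose that PILO rats were given afterwards. Recording electrodes were implanted in some animals, and the methods list recordings for pilocarpine-treated rats only, without saying which libraries they belong to. The effects of the seizures, pilocarpine, diazepam, glucose and any implantation cannot be told apart. Hippocampi were taken after an observation period of 84 days, from age-matched rats whose age in weeks is not given in the labels, with 1 animal per library and no pooling. The members of the comparison are the 21292 transcripts, of 31786 in the table, whose counts summed to at least 60 over the 6 libraries, and they held 99.9% of all counts. At the edge of this rule, 24 transcripts had a total of exactly 60 and were kept, and 39 had a total of 59 and were not. Gene symbols were at hand for 24 of the transcripts.

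Pilocarpine is a muscarinic agonist that drives limbic circuits into prolonged seizures. After a silent interval the surviving animals develop spontaneous recurrent seizures, and the model is widely used for temporal lobe epilepsy with its loss of pyramidal and hilar neurons, reactive gliosis and sprouting of the mossy fibers. Firing of hippocampal neurons depends on voltage-gated sodium and potassium channels, on calcium release and reuptake by the endoplasmic reticulum and on tonic GABA inhibition, and genes of each of these systems are among the 24. Their symbols come from the pairs of gene and transcript in the publication. In bulk tissue fewer cells of a type and less RNA per cell cannot be told apart. Of cell type markers, Gfap alone could be read here.

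Library totals ranged from 14954296 to 24092617 counts. PILO replicate 3 stood apart from the other 5 libraries. It lay at 101 on the first principal component of log2 CPM (normalised read counts, scaled to the effective library totals), which held 60.8% of the variance, while CTRL replicate 3 lay at the other end at -56.4 and the remaining libraries between -23.4 and 5.53. Its 10 most abundant transcripts took 26.1% of its counts, against 12.1% in CTRL replicate 3 and 16.9% to 17.4% in the others. Among the 14401 transcripts with a mean of at least 100 counts, 12.6% and 20.3% differed more than 2-fold between PILO replicate 3 and PILO replicates 1 and 2, whereas 0.583% did so between PILO replicates 1 and 2 and 0.187% to 0.757% between CTRL libraries. The common biological coefficient of variation was 0.153 in CTRL, 0.305 in PILO and 0.133 over PILO replicates 1 and 2. Values without PILO replicate 3 are therefore given below where leaving it out changed a call or moved a value by more than 1.5 times, and beside other values of the main genes. Its part in differences between the groups, beyond those values, was not tested. RNA quality values per library were not analysed here.

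In PILO against CTRL, 26 of 21292 transcripts (0.122%) passed an adjusted p of 0.05 in the quasi-likelihood test of edgeR. Of these, 20 rose (0.0939%) and 6 fell (0.0282%), and all of them by more than 2-fold. Rises ran from 1.18 to 6.24 on the log2 scale with a median of 2.71 (4-fold or more for 15 transcripts), and falls ran from -1.64 to -3.83 with a median of -2.55 (4-fold or more for 4). The unadjusted p was under 0.01 for 854 transcripts (4.01%), 510 of them higher in PILO (2.40%) and 344 lower (1.62%). The higher ones had a median log2 fold change of 1.20, and 356 exceeded a 2-fold change. The lower ones had a median of -0.94, and 151 exceeded a 2-fold change. The median over all transcripts tested was 0.01. All 3 libraries of a group lay beyond all 3 of the other for 5907 transcripts (27.7%), 2853 higher (13.4%) and 3054 lower (14.3%). Each of the 26 transcripts that passed was among them, and every transcript tested had counts in both groups.

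**Figure D1:**
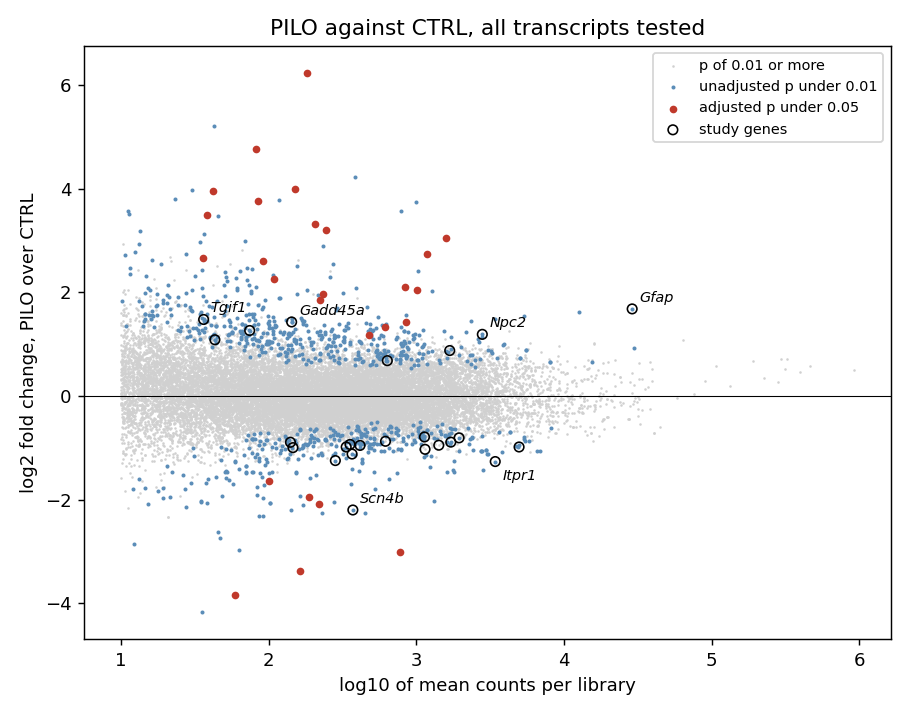
Each point is 1 of the 21292 transcripts tested, placed by the log10 of its mean counts per library and by its log2 fold change of PILO over CTRL. Red points passed an adjusted p of 0.05 (26 transcripts), blue points had an unadjusted p under 0.01, and open circles mark the 24 study genes, none of which is red and which spread from few counts (Tgif1) to many (Gfap).

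The number of transcripts that passed depended on single libraries. Without PILO replicate 3 it was 687 (3.23%), of which 389 were higher and 298 lower, and these held all 26. The unadjusted p was then under 0.01 for 1665 (7.82%), 907 higher and 758 lower, which held 806 of the 854. Without PILO replicate 1 the number at an adjusted p under 0.05 was 17, of which 14 were among the 26, and without PILO replicate 2 it was 23, of which 15 were. Without CTRL replicate 1, 2 or 3 it was 0 by the same edgeR test, with smallest adjusted p-values of 0.0720, 0.0742 and 0.0936, while 448, 406 and 389 transcripts had an unadjusted p under 0.01. With both CTRL replicate 3 and PILO replicate 3 left out, an alternative added after the data were seen, 1096 passed, 586 higher and 510 lower, and these held 23 of the 26. A fit of all 9 libraries, with the rats on the ketogenic diet as a group of their own, gave 29, of which 11 were among the 26. All 26 kept their direction in each of these fits.

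**Figure D2:**
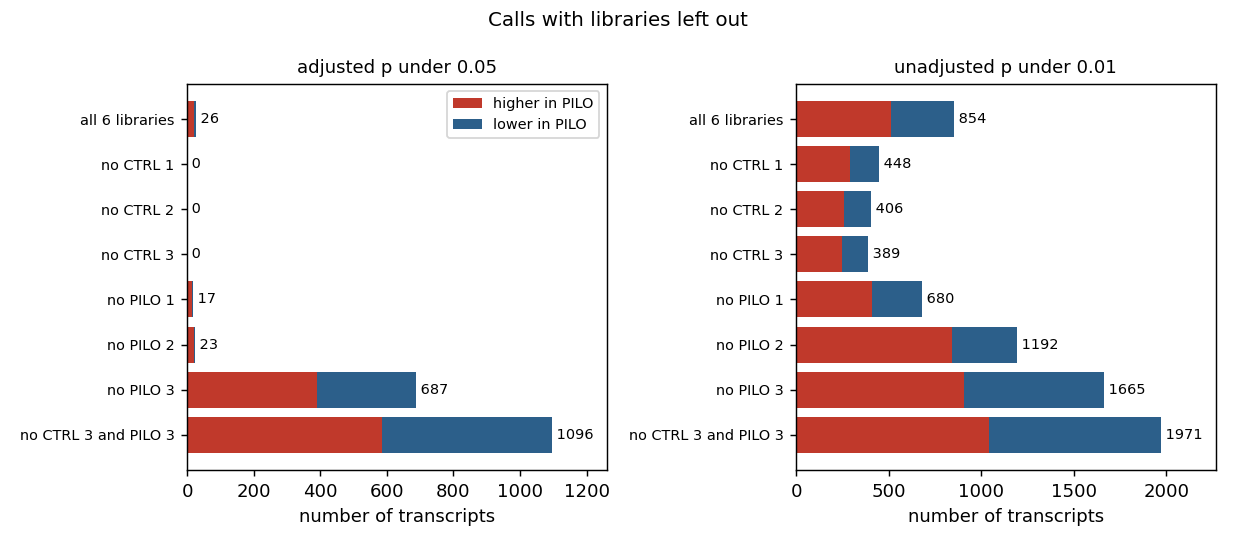
Bars give the number of transcripts at an adjusted p under 0.05 (left) and at an unadjusted p under 0.01 (right), higher (red) and lower (blue) in PILO, with all 6 libraries and with libraries left out (no CTRL 1 means without CTRL replicate 1). The count at an adjusted p under 0.05 is 26 with all libraries, 0 without any 1 of the CTRL libraries and 687 without PILO replicate 3.

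Among the transcripts without a symbol that passed, had a mean of at least 100 counts and did not overlap between groups, the pair with the smallest p in each direction is described here. They ranked 1, 2, 8 and 11 by p among all transcripts, and a choice by smallest p favors transcripts with little spread within groups. ENSRNOT00000023965 was at 0.999, 0.593 and 1.05 CPM in the CTRL libraries and at 16.7, 11 and 15.6 CPM in the PILO libraries. It rose by 4.0 log2 units (SE 0.30, adjusted p 0.0124), about 16-fold, from 21, 9 and 25 counts to 306, 275 and 270. ENSRNOT00000013145 was at 16.7, 16.1 and 12.1 CPM in CTRL and 79.6, 123 and 98.8 CPM in PILO. It rose by 2.75 (SE 0.23, adjusted p 0.0124). The lowest PILO library of both transcripts lay far above the highest CTRL library. ENSRNOT00000021103 was at 17.8, 14.4 and 20.1 CPM in CTRL and at 4.58, 3.63 and 4.17 CPM in PILO. It fell by 2.08 log2 units (SE 0.22, adjusted p 0.0176), and its PILO libraries lay close together. ENSRNOT00000020017 was at 68.3, 73.3 and 68.2 CPM in CTRL and at 13.0, 4.95 and 8.29 CPM in PILO. It fell by 3.01 (SE 0.33, adjusted p 0.0200), from CTRL libraries that were nearly alike. Without PILO replicate 3 the log2 fold changes of the 4 transcripts were 3.92, 2.77, -2.10 and -2.99, in the same order. When CTRL replicate 1, 2 or 3 was left out, 0 of the 4 passed (edgeR adjusted p from 0.0742 to 0.166). In a fit of all 9 libraries ENSRNOT00000013145 (0.118) and ENSRNOT00000021103 (0.0989) did not pass, and ENSRNOT00000021103 did not pass without PILO replicate 1 (0.0581). ENSRNOT00000020017 also did not pass without CTRL replicate 3 and PILO replicate 3 (0.162).

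Of the 24 study genes, 8 were higher and 16 lower in PILO. In each of the 24 the groups were free of overlap, against 27.7% of all transcripts, and 16 had an unadjusted p under 0.01, against 4.01% of all. The study picked these genes from the same libraries, so that neither count is independent evidence of a difference or its direction. None had an adjusted p under 0.05 in the edgeR quasi-likelihood test, where the values ran from 0.0511 to 0.303, while 24 had an unadjusted p under 0.05, against 15.9% of all transcripts. The edgeR exact test, the method nearest to that of the study, gave 13 genes at an adjusted p under 0.05 (2.90% of all transcripts passed there), and DESeq2 gave 12 (2.96% of all). With library quality weights limma gave 21 (7.98% of all), and the quasi-likelihood fit of all 9 libraries gave 2 (0.136% of all). Without PILO replicate 3 the number was 16 (3.23% of all), and without PILO replicate 1 it was 1 (Scn4b, 0.0374, with 0.0798% of all). Left without 1 CTRL library, or without PILO replicate 2, the fit gave 0. The direction of each gene was the same in every fit that tested it, under each scaling included. Log2 fold changes ran from 0.68 to 1.68 in the 8 higher genes (median 1.23) and from -0.79 to -2.20 in the 16 lower ones (median -0.97).

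**Figure D3:**
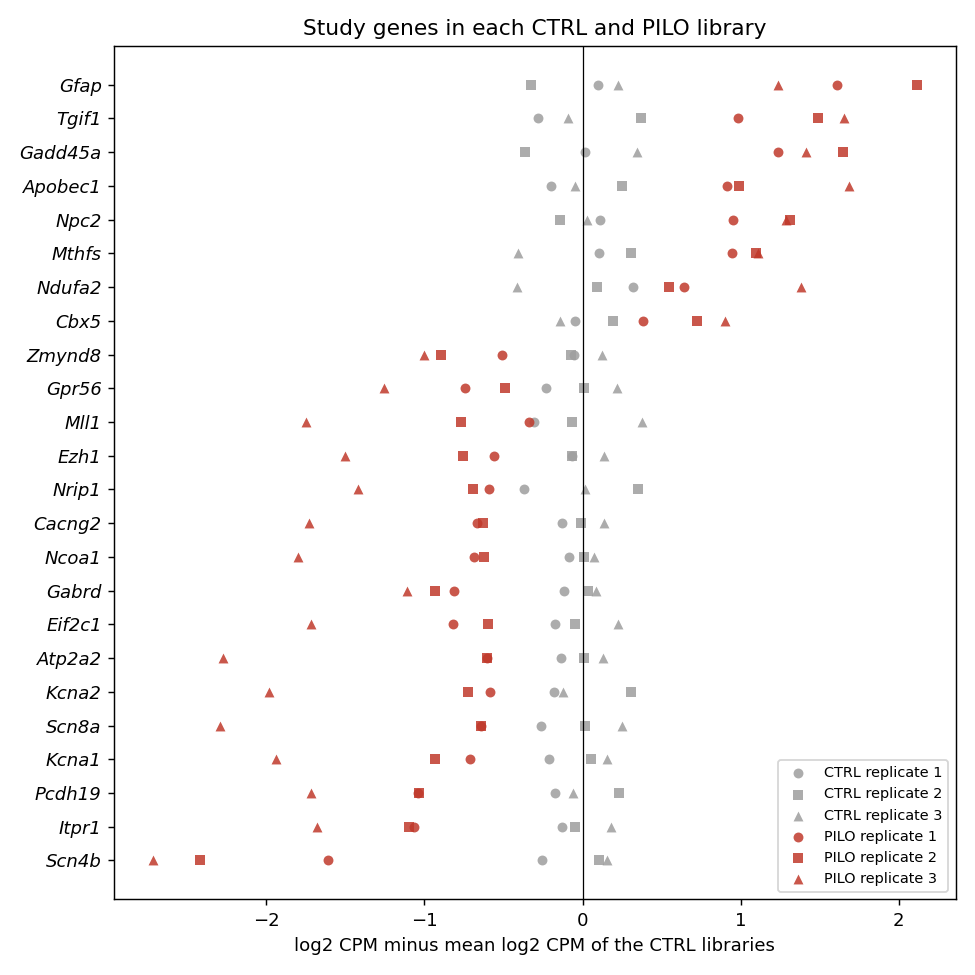
For each study gene, points give the log2 CPM of every library minus the mean log2 CPM of the CTRL libraries, with CTRL in grey and PILO in red and a symbol for each replicate. Groups are separate for each gene, and PILO replicate 3 (red triangles) is the lowest library for all 16 lower genes, well apart from PILO replicates 1 and 2 for Atp2a2 and Scn8a.

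The promoters of the 4 study genes with the smallest p-values are shown because the study from which the libraries come asked how CpG methylation relates to expression. They span 250 bases before to 50 bases after the RefSeq gene start in build GRCr8, read 5′ to 3′ on the strand of the gene, and capitals mark CpG dinucleotides. The RefSeq start need not be that of the Ensembl transcript counted in RN4. Scn4b lies at chr8:54343623-54343922 on the plus strand, Npc2 at chr6:110149196-110149495 on the minus strand, Gfap at chr10:88361612-88361911 on the minus strand and Itpr1 at chr4:142743190-142743489 on the plus strand.
Scn4b: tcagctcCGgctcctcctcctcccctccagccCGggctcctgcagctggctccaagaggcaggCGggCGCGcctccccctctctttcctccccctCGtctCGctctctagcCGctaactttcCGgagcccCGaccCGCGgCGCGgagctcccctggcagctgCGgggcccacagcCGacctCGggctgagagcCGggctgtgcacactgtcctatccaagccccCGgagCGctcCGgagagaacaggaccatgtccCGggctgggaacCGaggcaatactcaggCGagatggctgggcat
Npc2: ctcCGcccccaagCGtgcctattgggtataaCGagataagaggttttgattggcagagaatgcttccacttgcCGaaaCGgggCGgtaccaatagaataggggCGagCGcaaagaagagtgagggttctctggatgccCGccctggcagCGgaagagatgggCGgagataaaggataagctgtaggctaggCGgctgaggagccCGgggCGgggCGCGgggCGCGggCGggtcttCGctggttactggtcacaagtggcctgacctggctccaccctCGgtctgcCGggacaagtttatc
Gfap: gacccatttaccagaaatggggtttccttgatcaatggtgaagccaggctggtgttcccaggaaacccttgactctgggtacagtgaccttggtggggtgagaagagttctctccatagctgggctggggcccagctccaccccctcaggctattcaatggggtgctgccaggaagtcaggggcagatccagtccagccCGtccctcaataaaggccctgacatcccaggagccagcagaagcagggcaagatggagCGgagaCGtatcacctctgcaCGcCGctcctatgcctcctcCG
Itpr1: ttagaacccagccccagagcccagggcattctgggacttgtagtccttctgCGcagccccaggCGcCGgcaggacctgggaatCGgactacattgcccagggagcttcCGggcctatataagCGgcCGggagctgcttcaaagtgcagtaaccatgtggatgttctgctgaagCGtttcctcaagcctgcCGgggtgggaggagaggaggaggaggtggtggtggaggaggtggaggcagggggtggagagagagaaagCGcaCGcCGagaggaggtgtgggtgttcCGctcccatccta
These windows hold 24, 22, 6 and 13 CpG sites, a number that 18%, 21.0%, 56.3% and 35.3% of the 33469 rat promoters in the table reach or exceed. The counts were made for CG on the printed strand, which reads the same on the other strand, and 94.5% of all promoters hold at least 1. For each symbol the first promoter listed was used. A promoter was found for 19 of the 24 genes, 2 of them under newer symbols (Gpr56 as Adgrg1 and Eif2c1 as Ago1). The 12 lower genes among them held 3 to 60 CpG sites (median 35) and the 7 higher genes 2 to 23 (median 14), against a median of 7 over the table. Methylation was not measured in these libraries, and no test was made on these numbers. The study tied higher methylation of gene bodies, introns and exons to lower expression, but not higher methylation of promoters. It tied lower methylation of exons, introns, start sites and promoters to higher expression.

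All 4 sodium and potassium channel genes described were lower in PILO, with a median log2 fold change of -1.07, or -0.75 without PILO replicate 3. Scn4b (ENSRNOT00000030152), the auxiliary beta subunit that shapes the resurgent sodium current of fast-firing neurons, had the largest difference of the 24 genes in the edgeR fit of all 6 libraries. Gfap was level with it in size with limma (1.79 against -1.79 log2 units) and above it without CTRL replicate 3 and PILO replicate 3 (1.98 against -1.92). Scn4b was at 25.4, 32.6 and 33.8 CPM in the CTRL libraries and at 9.86, 5.59 and 4.52 CPM in the PILO libraries. Even the highest PILO library thus held less than the lowest CTRL library by a wide margin, and its means were 30.6 ± 4.54 and 6.66 ± 2.83 CPM (SD, n = 3 each). The log2 fold change was -2.20 (SE 0.30, adjusted p 0.0511), and it was -2.00 (SE 0.23, adjusted p 0.000464) without PILO replicate 3. Scaling by the size factors of DESeq2 moved its adjusted p to 0.0473.

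Scn8a (ENSRNOT00000008160), the pore-forming sodium channel of axon initial segments and nodes, was at 62.0, 75.2 and 88.3 CPM in CTRL and at 47.6, 47.7 and 15.1 CPM in PILO. PILO replicates 1 and 2 were alike, and PILO replicate 3 alone lay far lower. The log2 fold change was -1.03 (SE 0.39, adjusted p 0.297), and it became -0.66 (SE 0.16, adjusted p 0.0347) without PILO replicate 3. Kcna1 and Kcna2 encode shaker-type potassium channels of axons. Kcna1 (ENSRNOT00000026731) was at 21.4, 25.7 and 27.6 CPM in CTRL and at 15, 12.9 and 6.37 CPM in PILO. The log2 fold change came to -1.12 (SE 0.30, adjusted p 0.216), and -0.84 (SE 0.17, adjusted p 0.0150) without PILO replicate 3. In Scn8a and Kcna1, as in Scn4b, PILO replicate 3 was the lowest of the 6 libraries. Kcna2 (ENSRNOT00000050149) rested on fewer reads, 179, 182 and 212 counts in CTRL and 118, 146 and 41 in PILO. Its log2 fold change was -1.0 (SE 0.36, adjusted p 0.288), and it did not pass without PILO replicate 3 either (-0.67, SE 0.21, adjusted p 0.107).

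The 3 genes of calcium handling and channel auxiliary subunits (Itpr1, Atp2a2 and Cacng2) were lower as well, with a median of -0.98, or -0.66 without PILO replicate 3. Itpr1 (ENSRNOT00000009288), the receptor through which inositol trisphosphate releases calcium from the endoplasmic reticulum, was at 216, 229 and 269 CPM in CTRL and at 113, 111 and 73.8 CPM in PILO. The groups were far apart, although PILO replicate 3 lay below PILO replicates 1 and 2, which were nearly alike. The estimate was -1.26 log2 units (SE 0.22, adjusted p 0.0839), and it kept most of its size without PILO replicate 3 (-1.09, SE 0.14, adjusted p 0.000901). Atp2a2 (ENSRNOT00000067047), the pump that returns calcium to the endoplasmic reticulum, also had PILO replicate 3 far below the other PILO libraries. It was at 293, 324 and 352 CPM in CTRL and at 212, 211 and 66.3 CPM in PILO, and its log2 difference of -0.98 (SE 0.39, adjusted p 0.303) became -0.61 (SE 0.13, adjusted p 0.0223) without PILO replicate 3. Cacng2 (ENSRNOT00000008414), known as stargazin, escorts AMPA receptors to the synapse. It was at 20.9, 22.7 and 25.2 CPM in CTRL and at 14.4, 14.7 and 6.84 CPM in PILO, and its log2 fold change was -0.93 (SE 0.29, adjusted p 0.255), or -0.66 (SE 0.16, adjusted p 0.0354) without PILO replicate 3.

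The 3 receptor and adhesion genes were lower too, with a median of -0.95 in all libraries and -0.88 without PILO replicate 3. Gabrd (ENSRNOT00000022246) encodes the delta subunit of extrasynaptic GABA-A receptors, which carry tonic inhibition in dentate granule cells. It was at 25.1, 27.9 and 28.9 CPM in CTRL and at 15.5, 14.2 and 12.6 CPM in PILO. Both groups were tight, with means of 27.3 ± 1.97 and 14.1 ± 1.46 CPM (SD, n = 3 each), and the log2 fold change was -0.95 (SE 0.17, adjusted p 0.0970), or -0.88 (SE 0.15, adjusted p 0.00620) without PILO replicate 3. Pcdh19 (ENSRNOT00000042335), a protocadherin whose loss causes an epilepsy mainly of girls, was at 17.6, 23.3 and 19.0 CPM in CTRL and at 9.59, 9.66 and 5.97 CPM in PILO. Its log2 fold change was -1.24 (SE 0.24, adjusted p 0.112), and -1.05 (SE 0.18, adjusted p 0.00490) without PILO replicate 3. Gpr56 (ENSRNOT00000020921), an adhesion G-protein-coupled receptor of cortical development, ranged from 103 to 140 CPM in CTRL and from 50.3 to 85.9 CPM in PILO (log2 fold change -0.81, SE 0.24, adjusted p 0.239), and it passed without PILO replicate 3 (-0.62, SE 0.16, adjusted p 0.0439).

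The glial, lysosomal, mitochondrial and transcription factor genes were all higher in PILO, with a median log2 fold change of 1.33, or 1.24 without PILO replicate 3. Gfap (ENSRNOT00000034401), the intermediate filament of astrocytes and the usual marker of reactive gliosis, was at 694, 518 and 758 CPM in the CTRL libraries and at 1980, 2820 and 1530 CPM in the PILO libraries. The lowest PILO library, here replicate 3, still exceeded the highest CTRL library. The log2 fold change was 1.68 (SE 0.27, adjusted p 0.0743), about 3.2-fold, and without PILO replicate 3 it was 1.87 (SE 0.18, adjusted p 0.000133). Npc2 (ENSRNOT00000016076), which hands cholesterol on inside lysosomes, was at 90.5, 75.8 and 85.4 CPM in CTRL and at 162, 208 and 204 CPM in PILO. PILO replicate 3 lay between the other PILO libraries. The difference was 1.19 log2 units (SE 0.18, adjusted p 0.0607), and 1.14 (SE 0.14, adjusted p 0.000775) without that library.

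**Figure D4:**
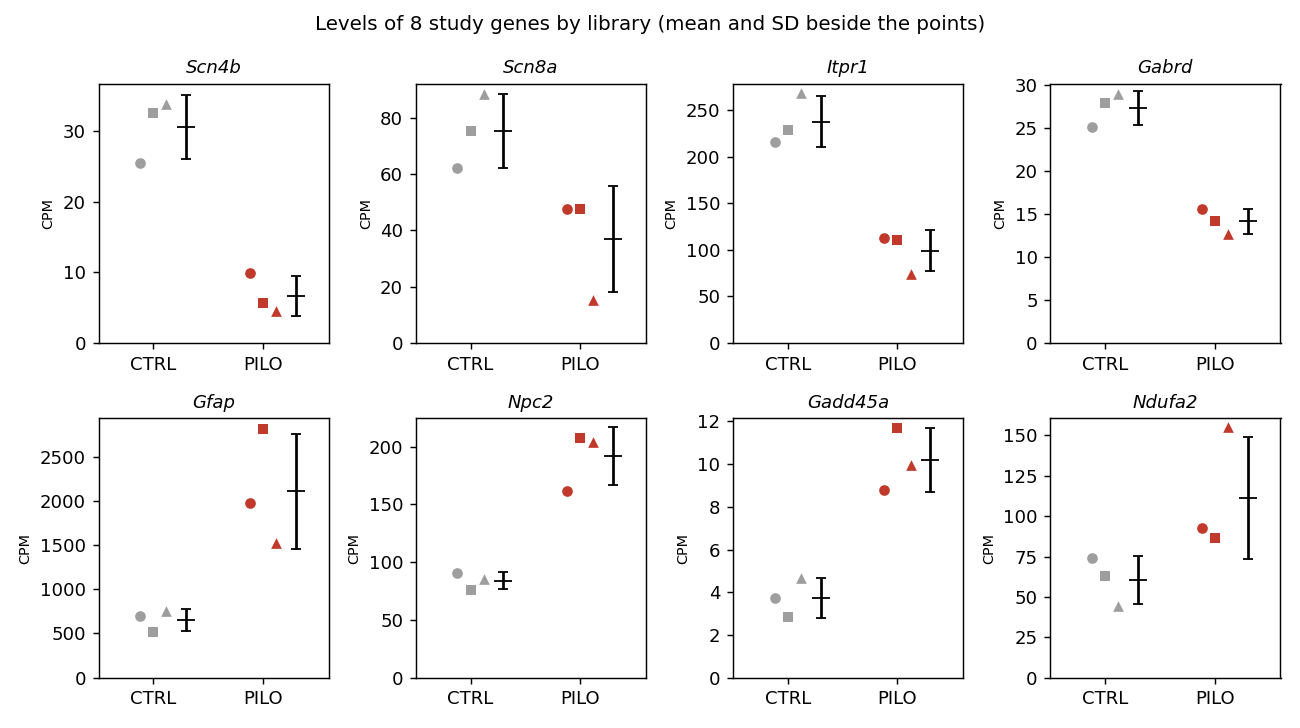
Points give the CPM of 8 study genes in each CTRL (grey) and PILO (red) library, with the replicate shown by its symbol (circle, square and triangle for replicates 1 to 3) and the group mean ± SD drawn beside them; each axis starts at 0. Gabrd and Npc2 separate the groups with little spread, while PILO replicate 3 lies apart from PILO replicates 1 and 2 for Scn8a, Ndufa2 and Itpr1.

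Ndufa2 (ENSRNOT00000023811), a subunit of mitochondrial complex I, was at 74.0, 63.2 and 44.3 CPM in CTRL and at 92.4, 86.6 and 155 CPM in PILO. The difference was largest in PILO replicate 3, and the lowest CTRL value came from CTRL replicate 3. The log2 fold change came to 0.88 (SE 0.28, adjusted p 0.263), or 0.57 (SE 0.18, adjusted p 0.105) without PILO replicate 3. Without CTRL replicate 3 and PILO replicate 3 it was 0.38, the lowest value of any fit. Tgif1 (ENSRNOT00000021534), a homeobox repressor of TGF-beta signaling, had the fewest reads of the 24 genes in the CTRL libraries, with 16, 19 and 21 counts in CTRL and 36, 71 and 55 in PILO. Its log2 fold change was 1.48 (SE 0.34, adjusted p 0.147), and 1.34 (SE 0.37, adjusted p 0.0634) without PILO replicate 3.

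Among the epigenetic genes, the 3 that act in DNA demethylation and folate metabolism were higher in PILO, with a median of 1.26. Gadd45a (ENSRNOT00000007698), a stress-induced protein linked to active DNA demethylation, was at 3.71, 2.83 and 4.69 CPM in CTRL and at 8.77, 11.7 and 9.97 CPM in PILO. Each PILO library was well above each CTRL library. On the log2 scale the difference was 1.43 (SE 0.25, adjusted p 0.0839), and 1.44 (SE 0.24, adjusted p 0.00447) without PILO replicate 3. Apobec1 (ENSRNOT00000020735), a cytidine deaminase, held 40, 40 and 51 counts in CTRL and 78, 112 and 126 in PILO, a log2 difference of 1.26 (SE 0.30, adjusted p 0.166). Mthfs (ENSRNOT00000039850), an enzyme of the folate cycle, held 31, 26 and 24 counts in CTRL and 50, 76 and 53 in PILO, a log2 difference of 1.09 (SE 0.30, adjusted p 0.216). Neither Apobec1 nor Mthfs passed without PILO replicate 3 (adjusted p 0.0596 and 0.0968).

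The 5 histone-modifying enzymes and coregulators were lower in PILO, from -0.79 to -0.95 with a median of -0.89, or -0.66 without PILO replicate 3. Zmynd8 (ENSRNOT00000025932), a reader of acetylated histones, had the smallest p of the 5. It was at 68.8, 67.9 and 77.6 CPM in CTRL and at 50.1, 38.3 and 35.6 CPM in PILO (log2 fold change -0.79, SE 0.19, adjusted p 0.169, and 0.0214 without PILO replicate 3). Ezh1 (ENSRNOT00000027640), a polycomb histone methyltransferase, was at 104, 104 and 120 CPM in CTRL and at 74.1, 64.8 and 38.4 CPM in PILO (log2 fold change -0.89, SE 0.25, adjusted p 0.228). Ncoa1 (ENSRNOT00000005782), a nuclear receptor coactivator, was at 86.5, 92.7 and 96.7 CPM in CTRL and at 57.0, 59.7 and 26.2 CPM in PILO (log2 fold change -0.95, SE 0.29, adjusted p 0.256). Both passed without PILO replicate 3, at 0.0183 for Ezh1 and 0.0145 for Ncoa1. Mll1 (ENSRNOT00000020573), a trithorax histone methyltransferase, was at 31.0, 36.6 and 49.9 CPM in CTRL and at 30.3, 22.5 and 11.4 CPM in PILO. Its groups nearly met, since PILO replicate 1 was only just below CTRL replicate 1, and its log2 difference of -0.87 (SE 0.34, adjusted p 0.300) was -0.58 without PILO replicate 3 and -0.36 without CTRL replicate 3 and PILO replicate 3. Nrip1 (ENSRNOT00000002152), a corepressor of nuclear receptors, ranged from 6.95 to 11.5 CPM in CTRL and from 3.30 to 5.94 CPM in PILO (log2 fold change -0.89, SE 0.29, adjusted p 0.265). Mll1 and Nrip1 did not pass without PILO replicate 3 (0.146 and 0.136).

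Of the last pair, Cbx5 (ENSRNOT00000055289), a heterochromatin protein, ranged from 22.0 to 27.8 CPM in CTRL and from 31.8 to 45.6 CPM in PILO. Its difference was the smallest of the 24 genes in the edgeR fit of all 6 libraries (log2 fold change 0.68, SE 0.20, adjusted p 0.233). Mll1 was smaller in size with limma (-0.36 against 0.42), and Nrip1 without CTRL replicate 2 (-0.70 against 0.79). Without CTRL replicate 3 and PILO replicate 3, Mll1 (-0.36) and Ndufa2 (0.38) were smaller than Cbx5 (0.50). Eif2c1 (ENSRNOT00000037728), an Argonaute protein of the microRNA pathway, was at 19.1, 20.9 and 25.2 CPM in CTRL and at 12.2, 14.2 and 6.49 CPM in PILO (log2 fold change -0.98, SE 0.29, adjusted p 0.241). Without PILO replicate 3, Eif2c1 passed (0.0365) and Cbx5 did not (0.0669).

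PILO replicate 3 was the lowest PILO library for all 16 lower genes, and CTRL replicate 3 was the highest CTRL library for 13 of these 16. For CTRL replicate 3 the share over all transcripts was not computed, so that count has no background here. Over all transcripts tested PILO replicate 3 was the lowest PILO library in 45.6%, and among the 344 lower transcripts at an unadjusted p under 0.01 it was so in 72.4%. Among the 8 higher genes it was the highest PILO library for 5, between the others for Npc2 and Gadd45a and the lowest for Gfap. It was the highest PILO library in 42.8% of all transcripts tested and in 60.4% of the 510 higher ones. Without PILO replicate 3 the change was smaller for 22 of the 24 genes, the exceptions being Gfap and Gadd45a. The same held for 14550 of all 21292 transcripts tested. At an unadjusted p under 0.01 it held for 282 of the 344 lower transcripts and 350 of the 510 higher ones. The median of the 16 lower genes moved from -0.97 to -0.67, and that of the 8 higher ones from 1.23 to 1.10. The SD of log2 CPM was larger in PILO than in CTRL for 22 of the 24 genes, with medians of 0.45 and 0.22. Over all transcripts the medians were 0.36 in PILO and 0.20 in CTRL, with the larger SD in PILO for 15687 (73.7%). Without PILO replicate 3 they were 0.14 and 0.20, with the larger SD in PILO for 7564 (35.5%). The PILO SD then rests on fewer libraries than the CTRL SD, which lowers it. With CTRL replicate 3 also left out, the groups were equal in size and the medians were 0.14 and 0.12. The SD was then larger in PILO for 11619 (54.6%).

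The share of transcripts at a small p changed with abundance in a way that depended on PILO replicate 3. When the transcripts were split into 5 bins by mean log2 CPM, the share at an unadjusted p under 0.01 was 3.76%, 5.12%, 3.71%, 4.04% and 3.43% from the lowest to the highest bin. Without PILO replicate 3 it was 5.52%, 7.61%, 7.35%, 8.81% and 9.81%, so that the highest bin then held the largest share. With all libraries, the numbers higher and lower in PILO were further apart in the lowest bin than in the highest. In the lowest bin, with a median of 23.2 counts per library, 125 were higher in PILO and 35 lower, and in the highest, with a median of 1669 counts, 65 were higher and 81 lower. The median absolute log2 fold change of these transcripts was 1.73 in the lowest bin and 0.84 in the highest. Over all transcripts of a bin, the median log2 fold change was 0.17 in the lowest bin and from -0.04 to 0.01 in the others. The part of that shift in the numbers higher and lower was not tested. Groups without overlap made up 20.5% of the lowest bin and 37.0% of the highest. The highest bin held 10 of the 24 study genes and the lowest held Tgif1 and Mthfs.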

How the data were processed

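Poly-A RNA of the dorsal hippocampus was sequenced as single reads of 36 bases. The authors aligned them to rat RN4 with BWA and counted tags per Ensembl 66 transcript, and the values they deposited are raw counts, with no filter. How reads shared between transcripts or strands were assigned is not given in the sources used here. Transcripts with a total of at least 60 over the 3 PILO and 3 CTRL libraries entered edgeR 4.0.16 (R 4.3.3) and its quasi-likelihood F-test (trimmed mean of M-values scaling, robust estimation, 4 residual degrees of freedom before moderation, two-sided), with Benjamini-Hochberg adjustment over all of them. CPM are counts scaled to effective library totals; a prior count of 2 was added for logs. The SE was obtained from the log2 fold change and the root of its F statistic. No 2 libraries of a group were alike within counting error (the lowest chi-square, per degree of freedom, was 4.70). Identical counts in all libraries were shared with another transcript by 304 of those tested, and by 0 of the study genes.

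Groups came from the labels; replicate numbers follow deposition order and pair nothing. The genes, the lists and the comparison were chosen with earlier results of these data known. Besides the 24 genes, with 1 further gene of the study not reported here, at most 2 identifiers in each direction were named, by smallest p among transcripts without overlap between groups that averaged at least 100 counts and passed an adjusted p of 0.05. Alternatives were other scalings and filters, the edgeR exact test, DESeq2 1.42.0 and limma 3.58.1 (voom with quality weights). A fit of all 9 libraries and fits with libraries left out were made as well. The test was checked on simulated data with the same spread in both groups and no outlying library. That check does not cover the larger spread of PILO seen here. The identifiers of other transcripts could not be matched to the RefSeq table, so pathway and cell type lists were not run.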

Additional observations from a re-analysis of the deposited data

How the results depend on the processing

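The number of transcripts at an adjusted p under 0.05 (26) was 12 when only library totals were used for scaling, 81 with no filter, 10 with a total of at least 600, 618 with the edgeR exact test, 631 with DESeq2 and 1700 with limma and quality weights. Leaving out 1 library gave 0 to 687, and leaving out CTRL replicate 3 and PILO replicate 3 gave 1096. Transcripts with an unadjusted p under 0.01 (854) numbered 533 with a total of at least 600, 1484 with the exact test, 1472 with DESeq2 and 2725 with limma, and 389 to 1665 without 1 library (1971 without both). For study genes at an adjusted p under 0.05 (0) the counts were 1 with the size factors of DESeq2, 3 with no filter (Scn4b, Gfap and Npc2), 13, 12 and 21 with the exact test, DESeq2 and limma, 2 with all 9 libraries (Scn4b and Npc2) and 0 to 16 without 1 library (16 without both). At an unadjusted p under 0.01 (16 genes) there were 7 to 22 without 1 library. Groups without overlap (5907) numbered 7061 to 9662 without 1 library and 10665 without both. With fewer libraries, groups are more easily free of overlap, so this rise says nothing about the libraries left out. Transcripts with a larger SD in PILO (15687) numbered 7564 to 17463 without 1 library, where the groups differ in size, and 11619 without both. Without PILO replicate 2 70.7% of the transcripts past that unadjusted threshold were higher in PILO, against 59.7%. Among single results no direction reversed. For the study genes, 272 alternative fits stayed on the same side of the threshold and 85 passed it; for the 4 identifiers, 44 still passed and 16 did not. The cause was not tested. No paired analysis was possible because the labels give no replicate number that links a PILO animal to a CTRL animal.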
